A study of Mus musculus with 6 samples.

Results

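The genes described are 50 ribosome biogenesis and nucleolar factors, named as a list of gene symbols, and 48 of them were measured among the 19505 genes with a symbol on the arrays. Each was read from the brightest probe set of its symbol in the array annotation, and none had more than 1. Nop56 and Gnl3 were not analysed here. The values are log2 signals from 6 Affymetrix arrays, 1 per sample, on the RMA scale, which brings the arrays to similar but not identical distributions. All samples were C57BL/6 mouse fibrosarcoma cells with the Q72L form of Rras2, named FS2 and grown in DMEM with fetal bovine serum. Fibrosarcoma is a malignant tumour of fibroblast-like cells, and Rras2 encodes a RAS-related GTPase. The shRras2 group (3 arrays, replicates 4 to 6) had received an shRNA directed at Rras2, sh#89. The pLKO group (3 arrays, replicates 1 to 3) had received the pLKO vector. Both groups carry the Q72L form, only 1 shRNA was used, and whether replicates were grown apart is not labelled, so that p-values cover the spread between these 6 samples alone, and that spread may be technical.

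Ribosomes are built in the nucleolus. RNA polymerase I transcribes a long precursor RNA, small nucleolar ribonucleoproteins (snoRNPs) guide chemical changes on it, and a sequence of assembly factors, helicases and nucleases folds, cuts and loads it with ribosomal proteins until a small and a large subunit leave the nucleus. Transcripts of these factors are known to follow growth signalling, and many are textbook targets of the transcription factor MYC. The 48 measured genes were arranged by an approximate step of assembly: snoRNP proteins of the box C/D and box H/ACA classes, nucleolar scaffold proteins, early and late factors of the small subunit, and early and late factors of the large subunit. A gene may act at another step than the one it was placed in, so counts and medians by step describe these groupings only.

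The targeted gene checked the labels. Rras2 had log2 signals of 9.09, 9.69 and 9.21 in the shRras2 cells, against 10.67, 10.75 and 10.82 in the pLKO cells, each time in the order of the replicate numbers, 4 to 6 and 1 to 3, as in all values below. Its log2 difference, shRras2 minus pLKO, was -1.41 ± 0.14 (SE; limma adjusted p = 0.00163), and 37.6% of the pLKO level (95% interval 29.9 to 47.2%) remained, with the highest remaining share, 48.1%, on replicate 5. Over all 19505 genes, 584 were higher and 433 lower in shRras2 cells at a limma adjusted p under 0.05, and 506 and 567 after the arrays were centred on their medians. The fibroblast marker list had 6 of 10 measured genes above 7.92, the 95th percentile of the negative-control probe sets, among them Vim, Fn1 and Col3a1, while Dcn, Lum, Thy1 and Col1a2 lay below it in both groups. Of the macrophage, lymphocyte, endothelial and epithelial markers, 0 of 26 lay above it in either group.

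All 48 measured ribosome biogenesis genes had a negative log2 difference, that is a lower mean in shRras2 cells, while 53.2% of all genes did. The list was chosen with earlier results of these data known, so the counts in it only describe the list. The differences lay between -0.77 (Rrp12) and -0.06 (Gar1), with a median of -0.28, against a median of -0.01 over all genes tested. The median corresponds to 82.4% of the pLKO level. Of the 48 genes, 10 fell (limma adjusted p under 0.05), 0 rose and 38 did not pass. The share of all genes called lower was 2.22%, and 2.99% were called higher. At an unadjusted p under 0.05, 32 of the 48 were lower and 0 higher, against 10% of all genes lower and 9.11% higher. All 3 shRras2 arrays lay below all 3 pLKO arrays for 34 of the 48, against 13.9% of all genes, and all lay above for 0, against 11.6%. Most of the 48 probe sets were well above background, with both group means above the negative-control percentile for 46 of them. Among the 7885 genes of that kind, 3.93% were called lower, 15.3% were lower at an unadjusted p under 0.05, 22.6% had separate groups with shRras2 below, 55.7% had a negative difference, and the median difference was -0.02. In such bulk samples, less RNA of a gene per cell and fewer cells that express it cannot be told apart.

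Markers of other cell identities moved with the groups as well. Of 12 skeletal muscle markers 8 rose and 0 fell, beside 2.99% of all genes called higher and 2.22% called lower. The log2 of the summed linear signal of the 12 lay between 12.29 and 13.12 on the shRras2 arrays, against 9.97 to 10.29 on the pLKO arrays. In pLKO cells 0 of the 12, and in shRras2 cells 7, had a mean above the negative-control percentile, and Myod1, Myf5, Ckm and Ttn did not pass the test. Of 10 fibroblast markers 3 rose, Col3a1, Pdgfrb and Dcn, and the same sum lay between 15.06 and 15.09, against 14.92 to 14.95. Their part in the lower signals of the ribosome biogenesis genes was not tested.

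**Figure D1:**
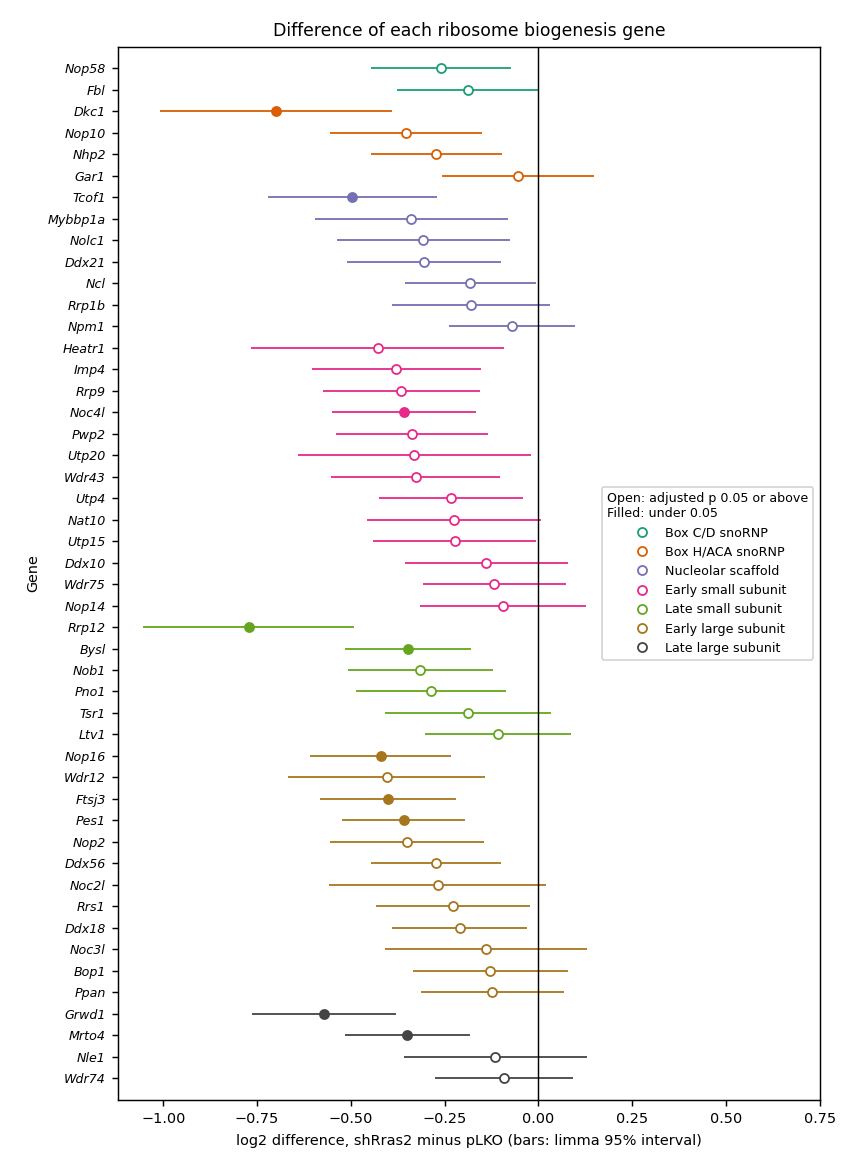
Log2 difference, shRras2 minus pLKO, of each of the 48 measured genes (horizontal axis) with limma's 95% interval, grouped and coloured by assembly step; filled points had an adjusted p under 0.05 and open points did not. Every point lies left of 0, from -0.77 for Rrp12 to -0.06 for Gar1, and filled points occur in 6 of the 7 steps.

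The genes were lower on each shRras2 array, by different amounts. Relative to each gene's mean over the 3 pLKO arrays, the 48 genes had a median deviation of -0.37 on shRras2 replicate 4, -0.17 on replicate 5 and -0.26 on replicate 6, against -0.01, -0.05 and 0.05 on pLKO replicates 1, 2 and 3. Over all genes these medians lay between -0.01 and 0.01 on the 6 arrays. Replicate 4 held the lowest of the 3 shRras2 values for 40 of the 48 genes and replicate 5 the highest for 31. Of the 48, 46 lay below every pLKO array on replicate 4, 36 on replicate 5 and 43 on replicate 6, against 33.1%, 32.5% and 32.0% of all genes. Among the pLKO arrays, replicate 3 held the highest value for 35 genes and replicate 2 the lowest for 29. Replicate 5, with the smallest shift of these genes, was also the shRras2 array with the most Rras2 signal left, while replicates 4 and 6 had 31.8% and 34.6% left. A relation between the level of Rras2 and these genes within the groups was not tested.

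**Figure D2:**
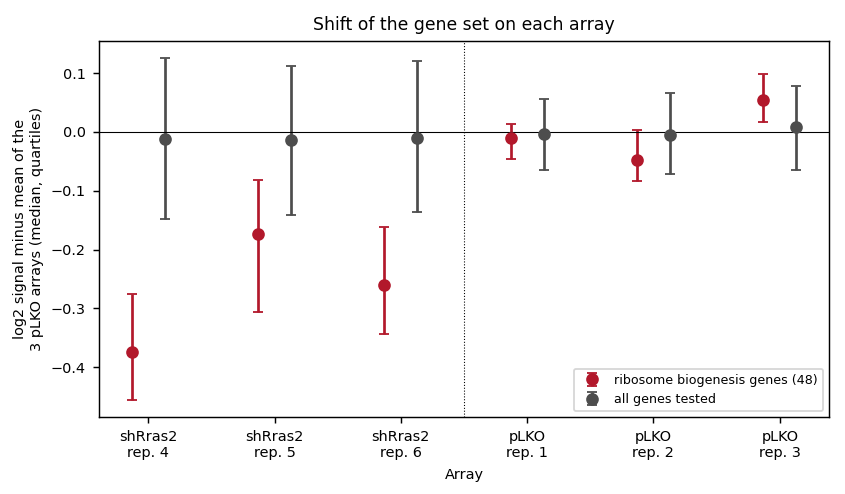
Median (points) and quartiles (bars) of the log2 signal minus the mean of the 3 pLKO arrays, per array, for the 48 ribosome biogenesis genes and for all 19505 genes tested. The 48 genes had medians of -0.37, -0.17 and -0.26 on the 3 shRras2 arrays, while the medians of all genes stayed within 0.02 of 0 on every array.

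RefSeq promoter windows, 250 bases before to 50 after the start of a gene in GRCm38.p6, were at hand for 42 of the 48 genes and are shown for 5 of them. MYC and ETS factors are known to bind such promoters, but neither binding nor a part of these factors in the differences was tested. The E-box CACGTG, which reads the same on both strands, occurred in 12 of the 42 genes (28.6%), against 8.09% of all 27025 genes with a window and 12.4% of those with both group means above the negative-control percentile. In 10 of these 12 it lay within the 50 bases after the start, where 1.28% of all genes and 1.84% of the brighter ones held it, and in 2 it lay before the start, where 6.86% of all genes did. The 12 were Grwd1, Imp4, Ltv1, Mybbp1a, Nle1, Nop2, Pes1, Pno1, Tsr1, Utp20, Utp4 and Wdr43. The ETS core CCGGAA, on either strand, occurred in 20 of the 42 (47.6%), against 16.7% of all genes and 34.6% of the brighter ones. The TATA sequence TATAAA occurred in 3 of the 42 (7.14%, against 15.7% of all genes and 8.34% of the brighter ones), and the related E-box CATGTG in 9 (21.4%, against 15.9% and 9.78%), both strands counted. The motifs and this window were chosen after their counts had been seen, and a match is only a description of the letters.

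The 12 genes with CACGTG had a median log2 difference of -0.33, the 30 without it -0.27, and the 2 ranges overlapped (-0.57 to -0.11 with it, -0.70 to -0.06 without). With CCGGAA the median was -0.26 over 20 genes, and without it -0.32 over 22. Of the 8 fallen genes with a window, 2 held CACGTG (25%) and 3 held CCGGAA (37.5%), against 28.6% and 47.6% of the 42. Dkc1, Noc4l, Nop16 and Mrto4 held neither and are not shown. The windows below are those of the 4 fallen genes that hold CACGTG or CCGGAA, and of Nop2, which holds both before its start. Capitals mark CACGTG and the ETS core on either strand.
Grwd1, chr7:45830740-45831039, minus strand: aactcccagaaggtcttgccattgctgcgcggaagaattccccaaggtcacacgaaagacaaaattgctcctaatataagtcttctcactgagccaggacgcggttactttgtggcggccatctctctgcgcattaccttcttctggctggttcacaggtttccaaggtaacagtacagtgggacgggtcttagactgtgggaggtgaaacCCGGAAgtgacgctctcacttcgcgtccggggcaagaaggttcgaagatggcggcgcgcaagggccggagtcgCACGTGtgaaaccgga
Pes1, chr11:3963725-3964024, plus strand: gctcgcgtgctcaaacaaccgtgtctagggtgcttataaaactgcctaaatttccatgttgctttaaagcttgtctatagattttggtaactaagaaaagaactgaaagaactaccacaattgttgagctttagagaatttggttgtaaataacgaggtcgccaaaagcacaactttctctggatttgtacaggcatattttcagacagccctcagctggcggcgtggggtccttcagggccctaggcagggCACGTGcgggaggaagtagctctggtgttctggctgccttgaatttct
Ftsj3, chr11:106256035-106256334, minus strand: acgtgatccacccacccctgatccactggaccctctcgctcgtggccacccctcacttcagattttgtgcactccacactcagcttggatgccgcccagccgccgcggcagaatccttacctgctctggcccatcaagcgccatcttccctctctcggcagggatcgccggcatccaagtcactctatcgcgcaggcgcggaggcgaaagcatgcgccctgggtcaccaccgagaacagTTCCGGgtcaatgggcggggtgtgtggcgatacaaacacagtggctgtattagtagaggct
Bysl, chr17:47611443-47611742, minus strand: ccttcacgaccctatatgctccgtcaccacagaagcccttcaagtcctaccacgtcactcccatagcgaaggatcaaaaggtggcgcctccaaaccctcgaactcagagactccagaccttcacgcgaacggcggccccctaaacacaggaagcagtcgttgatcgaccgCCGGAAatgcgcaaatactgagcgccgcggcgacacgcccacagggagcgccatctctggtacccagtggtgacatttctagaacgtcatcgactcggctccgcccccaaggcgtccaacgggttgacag
Nop2, chr6:125131633-125131932, plus strand: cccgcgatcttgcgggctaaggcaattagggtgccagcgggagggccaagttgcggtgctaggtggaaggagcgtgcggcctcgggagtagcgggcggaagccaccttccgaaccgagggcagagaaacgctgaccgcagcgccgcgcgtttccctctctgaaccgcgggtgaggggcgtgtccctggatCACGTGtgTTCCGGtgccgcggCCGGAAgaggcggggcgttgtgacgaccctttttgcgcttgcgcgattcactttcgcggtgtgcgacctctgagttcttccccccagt
In Grwd1 the CCGGAA began 39 bases before the start and the CACGTG at base 35 after it, and in Pes1 the CACGTG began at base 3. In Nop2 the CACGTG and both ETS cores lay within 60 bases before the start.

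**Figure D3:**
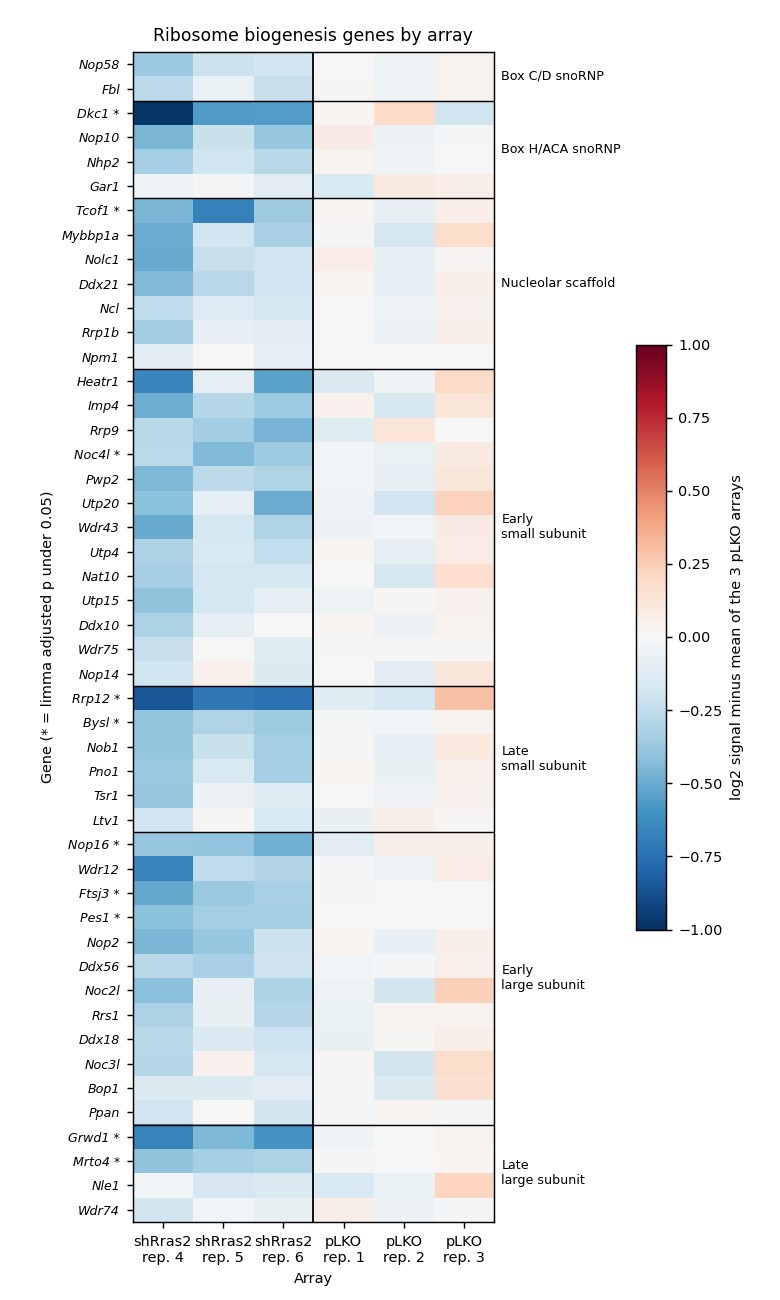
Heat map of the log2 signal minus the mean of the 3 pLKO arrays for the 48 measured genes (rows, grouped by assembly step, asterisks mark an adjusted p under 0.05) on the 3 shRras2 arrays (left) and the 3 pLKO arrays (right). Blue is lower and red higher; the darkest cells are those of Dkc1 and Rrp12 on shRras2 replicate 4, and Nop14, Ltv1, Noc3l and Ppan lie above the pLKO mean on replicate 5.

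The snoRNP proteins carry out the site-directed changes on ribosomal RNA. Dkc1, the pseudouridine synthase of box H/ACA snoRNPs, fell to 61.6% of the pLKO level (95% interval 49.7 to 76.3%). Its signals were 8.06, 8.46 and 8.47 in the shRras2 cells, against 9.05, 9.21 and 8.83 in the pLKO cells. The groups were separate, with replicate 4 the lowest, and the difference was -0.70 ± 0.14 (SE; limma adjusted p = 0.0229). Its 3 partner proteins in the same particle did not pass. Nop10 had 10.99, 11.23 and 11.07 in the shRras2 cells, against 11.53, 11.39 and 11.43 in the pLKO cells (-0.35 ± 0.09, limma adjusted p = 0.0601). Nhp2 had 10.57, 10.71 and 10.63 in the shRras2 cells, against 10.93, 10.87 and 10.91 in the pLKO cells (-0.27 ± 0.08, adjusted p = 0.0857), again with separate groups. Gar1 had 10.69, 10.72 and 10.63 in the shRras2 cells, against 10.58, 10.83 and 10.80 in the pLKO cells, which overlapped, and differed by -0.06 ± 0.09 (limma adjusted p = 0.804). Gar1 was the measured gene closest to 0. Of the box C/D proteins, Nop58, a core protein, and Fbl, the ribose methyltransferase, had separate groups and did not pass (-0.26 ± 0.08 and -0.19 ± 0.08, limma adjusted p = 0.121 and 0.268). Fbl had 11.15, 11.35 and 11.18 in the shRras2 cells, against 11.43, 11.37 and 11.45 in the pLKO cells.

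Of the 7 nucleolar scaffold and transcription-linked proteins, 1 fell and the median was -0.30, and for all 7 the 3 shRras2 arrays lay below the 3 pLKO arrays. Over all genes, 2.22% were called lower and 13.9% had all shRras2 arrays below. Those shares were 3.93% and 22.6% among genes with both group means above the negative-control percentile. Tcof1, which encodes treacle, a scaffold that links RNA polymerase I to RNA modification, had 9.13, 8.92 and 9.24 in the shRras2 cells, against 9.61, 9.51 and 9.66 in the pLKO cells. It fell to 70.9% of the pLKO level (95% interval 60.6 to 83.0%), by 0.50 on the log2 scale (limma adjusted p = 0.0254), and replicate 5 was here the lowest array. Mybbp1a, a nucleolar protein bound to the polymerase I machinery, differed by -0.34 ± 0.11 (SE; limma adjusted p = 0.143). Nolc1, a chaperone of snoRNPs, differed by -0.31 ± 0.10 (SE; limma adjusted p = 0.137), and the RNA helicase Ddx21 by -0.30 ± 0.09 (SE; limma adjusted p = 0.0996). These 3 did not pass, and each had separate groups. Nucleolin and nucleophosmin are abundant nucleolar proteins. Ncl, for nucleolin, had 11.65, 11.78 and 11.74 in the shRras2 cells, against 11.91, 11.86 and 11.95 in the pLKO cells (-0.18 ± 0.08, limma adjusted p = 0.244). Npm1, for nucleophosmin, had 12.32, 12.42 and 12.32 in the shRras2 cells, against 12.43, 12.43 and 12.42 in the pLKO cells, and its difference of -0.07 ± 0.07 was close to its SE (adjusted p = 0.676). Rrp1b, a nucleolar protein of large-subunit precursors, differed by -0.18 ± 0.09 (SE; limma adjusted p = 0.341).

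Early small-subunit assembly is the work of a large particle that forms on the nascent precursor. Of its 13 measured genes 1 fell, 12 did not pass, and the median was -0.33. Among all genes 2.22% were called lower, and 3.93% among those with both group means above the negative-control percentile. Noc4l, known from yeast as a partner of Nop14, had 9.19, 9.02 and 9.10 in the shRras2 cells, against 9.43, 9.39 and 9.55 in the pLKO cells. It fell to 78.0% of the pLKO level (95% interval 68.3 to 89.1%), a difference of -0.36 ± 0.08 (SE; limma adjusted p = 0.0461), with separate groups. Nop14 itself had 10.59, 10.84 and 10.66 in the shRras2 cells, against 10.80, 10.67 and 10.90 in the pLKO cells, which overlapped, with a difference of -0.09 ± 0.10 (limma adjusted p = 0.670). Heatr1, a subunit of the UtpA complex that binds the start of the precursor, had the largest difference of this step, -0.43 ± 0.15 (SE; limma adjusted p = 0.156), and the widest interval of it. Its signals were 9.13, 9.69 and 9.25 in the shRras2 cells, against 9.64, 9.74 and 9.97 in the pLKO cells, so that replicate 5 lay above pLKO replicate 1. The other UtpA subunits were Wdr43 (-0.33 ± 0.10), Utp4 (-0.23 ± 0.08), Utp15 (-0.22 ± 0.10) and Wdr75 (-0.12 ± 0.08), with limma adjusted p between 0.108 and 0.506. Utp4, Utp15 and Wdr43 had separate groups and Wdr75 did not.

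Of the other early small-subunit factors, Imp4 and Rrp9 belong to the U3 snoRNP or bind it, and Pwp2 to the UtpB complex. Imp4 had 9.49, 9.70 and 9.62 in the shRras2 cells, against 10.02, 9.82 and 10.10 in the pLKO cells, a difference of -0.38 ± 0.10 (SE; limma adjusted p = 0.0676). Rrp9 had 9.71, 9.64 and 9.52 in the shRras2 cells, against 9.86, 10.10 and 9.99 in the pLKO cells, a difference of -0.36 ± 0.09 (SE; limma adjusted p = 0.0601). Pwp2 had 8.83, 9.02 and 8.98 in the shRras2 cells, against 9.25, 9.20 and 9.39 in the pLKO cells, a difference of -0.34 ± 0.09 (SE; limma adjusted p = 0.0696). All 3 had separate groups and missed the threshold. Utp20 differed by -0.33 ± 0.14 (SE; limma adjusted p = 0.234) and Nat10, an RNA acetyltransferase, by -0.22 ± 0.10 (SE; limma adjusted p = 0.279), both with overlapping groups. The helicase gene Ddx10 differed by -0.14 ± 0.10 (SE; limma adjusted p = 0.489).

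Late small-subunit factors accompany the particle to the cytoplasm, where its RNA receives the final cut. Of 6 genes 2 fell, with a median of -0.30, beside 2.22% of all genes and 3.93% of those above the negative-control percentile in both groups. Rrp12, known from yeast for the export of subunit precursors, had the largest difference of the 48. Its signals were 7.75, 7.90 and 7.87 in the shRras2 cells, against 8.49, 8.44 and 8.90 in the pLKO cells. It fell to 58.5% of the pLKO level (95% interval 48.1 to 71.2%), a difference of -0.77 ± 0.12 (SE; limma adjusted p = 0.0104), and all shRras2 values lay below the negative-control percentile while all pLKO values lay above it, so that its shRras2 level was near background. Bysl, which encodes bystin, a processing factor of the small subunit, had 9.93, 10.02 and 9.96 in the shRras2 cells, against 10.31, 10.29 and 10.35 in the pLKO cells. It fell to 78.6% of the pLKO level (95% interval 70.0 to 88.3%), a difference of -0.35 ± 0.07 (SE; limma adjusted p = 0.0312), and the gap between the groups was wider than the range within either. The nuclease that makes the final cut, Nob1, had 10.36, 10.52 and 10.40 in the shRras2 cells, against 10.73, 10.66 and 10.84 in the pLKO cells (-0.31 ± 0.09, limma adjusted p = 0.0753). Its binding partner Pno1 differed by -0.29 ± 0.09 (SE; limma adjusted p = 0.113), and both had separate groups. Tsr1 and Ltv1 differed by -0.19 ± 0.10 and -0.11 ± 0.09 (limma adjusted p = 0.344 and 0.557), and on replicate 5 Ltv1 lay within the pLKO range.

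Of the 12 early large-subunit genes 3 fell and 9 did not pass, with a median of -0.27. The share called lower was 2.22% over all genes and 3.93% over those above the negative-control percentile in both groups. Pes1, Bop1 and Wdr12 encode the PeBoW complex, which is needed to process the RNAs of the large subunit. Pes1 had 10.80, 10.87 and 10.87 in the shRras2 cells, against 11.20, 11.21 and 11.20 in the pLKO cells, the tightest pLKO values of the 3. It fell to 77.9% of the pLKO level (95% interval 69.5 to 87.4%), a difference of -0.36 ± 0.07 (SE; limma adjusted p = 0.0259). Wdr12 had 8.95, 9.37 and 9.32 in the shRras2 cells, against 9.60, 9.57 and 9.69 in the pLKO cells, with separate groups and an estimate of -0.40 ± 0.12 (SE; limma adjusted p = 0.0898) that did not pass. Bop1 had 8.23, 8.23 and 8.25 in the shRras2 cells, against 8.35, 8.23 and 8.52 in the pLKO cells, which overlapped, and differed by -0.13 ± 0.09 (SE; limma adjusted p = 0.503). The 3 subunits thus had differences from -0.40 to -0.13, and whether they differ from each other was not tested.

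The other fallen genes of this step were Nop16, a nucleolar protein whose yeast form acts in large-subunit assembly, and Ftsj3, related to a yeast RNA methyltransferase. Nop16 had 10.09, 10.07 and 9.99 in the shRras2 cells, against 10.36, 10.52 and 10.52 in the pLKO cells. It fell to 74.8% of the pLKO level (95% interval 65.6 to 85.2%), a difference of -0.42 ± 0.08 (SE; limma adjusted p = 0.0236). Ftsj3 had 9.12, 9.25 and 9.31 in the shRras2 cells, against 9.64, 9.62 and 9.62 in the pLKO cells, and fell to 75.7% of the pLKO level (95% interval 66.7 to 85.9%), a difference of -0.40 ± 0.08 (SE; limma adjusted p = 0.0248). Neither gene had overlapping groups. Nop2, an RNA cytosine methyltransferase, had 10.87, 10.94 and 11.11 in the shRras2 cells, against 11.34, 11.24 and 11.38 in the pLKO cells, and its difference of -0.35 ± 0.09 missed the threshold (limma adjusted p = 0.0639). The helicase genes Ddx56 and Ddx18 differed by -0.27 ± 0.08 and -0.21 ± 0.08 (limma adjusted p = 0.0843 and 0.188), and Rrs1 by -0.23 ± 0.09 (SE; limma adjusted p = 0.213), all with separate groups. Noc2l, Noc3l and Ppan, at -0.27 ± 0.13, -0.14 ± 0.12 and -0.12 ± 0.08 (limma adjusted p = 0.3, 0.585 and 0.486), had overlapping groups, and Noc3l on replicate 5 lay above pLKO replicates 1 and 2.

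Of the 4 measured genes placed with the late large-subunit factors 2 fell. Beside them, 2.22% of all genes were called lower, and 3.93% of those above the negative-control percentile in both groups. Grwd1, whose yeast form is a chaperone for a ribosomal protein of the large subunit, had 8.59, 8.81 and 8.66 in the shRras2 cells, against 9.22, 9.26 and 9.29 in the pLKO cells. It fell to 67.3% of the pLKO level (95% interval 59.0 to 76.9%), a difference of -0.57 ± 0.08 (SE; limma adjusted p = 0.00735), the lowest adjusted p of the 48. Mrto4, known from yeast to hold the place of the stalk protein on the particle, had 9.27, 9.34 and 9.36 in the shRras2 cells, against 9.66, 9.67 and 9.69 in the pLKO cells. It fell to 78.5% of the pLKO level (95% interval 69.9 to 88.1%), a difference of -0.35 ± 0.07 (SE; limma adjusted p = 0.0303), and both genes had separate groups. Wdr74 had 11.15, 11.31 and 11.26 in the shRras2 cells, against 11.40, 11.27 and 11.32 in the pLKO cells, which overlapped (-0.09 ± 0.08, limma adjusted p = 0.601). Nle1 had 7.43, 7.28 and 7.31 in the shRras2 cells, against 7.30, 7.39 and 7.67 in the pLKO cells (-0.11 ± 0.11, limma adjusted p = 0.628) and was the only one of the 48 with both group means below the negative-control percentile, so a change in it could be missed.

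**Figure D4:**
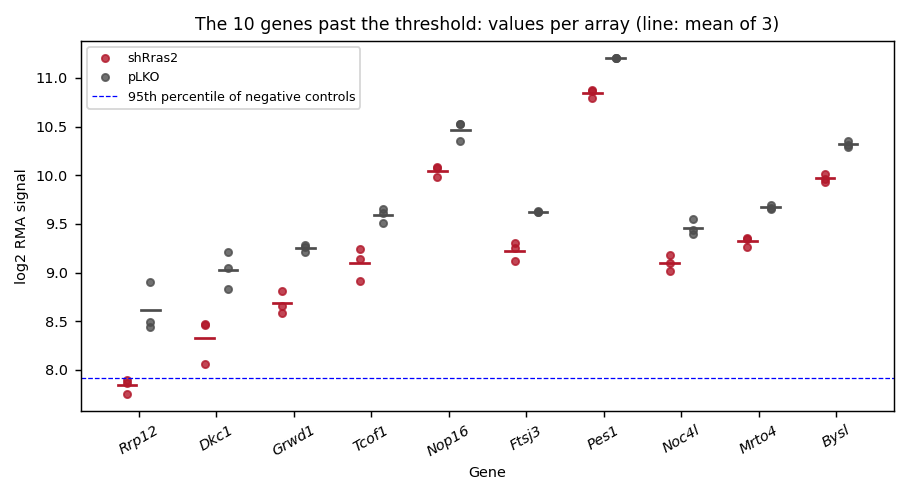
Log2 RMA signal of the 10 fallen genes on each array, shRras2 left (red) and pLKO right (grey) for each gene, with a line at the mean of 3 arrays; the dashed line is at 7.92, the negative-control percentile. In all 10 genes the highest shRras2 point lies below the lowest pLKO point, and the shRras2 points of Rrp12 lie below the dashed line.

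The number of fallen genes depended on single arrays. Without shRras2 replicate 4, 5 or 6 it was 1, 11 and 3, and without pLKO replicate 1, 2 or 3 it was 3, 2 and 3, while the share of all genes called lower moved between 0.574 and 2.32%. All 48 differences stayed negative in each of these 6 fits, and their median ranged from -0.32 to -0.24. Grwd1 passed in all 6 fits (limma adjusted p up to 0.0389) and Rrp12 in 5 (up to 0.0522). Dkc1, Nop16 and Tcof1 passed in 2 each, Bysl, Ftsj3, Mrto4 and Pes1 in 1 each, and Noc4l in 0, with adjusted p up to 0.149. Heatr1 and Nop10, which had not passed, did so without shRras2 replicate 5 (limma adjusted p = 0.0272 and 0.0359).

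Other genes of the pathway, from lists that do not share a gene with the 48, had medians nearer 0. The 48 genes and these lists were chosen with earlier results of these data known. The contrast between them therefore describes the lists and cannot be told apart from that choice. Of all genes 2.22% were called lower, and 3.93% of those with both group means above the negative-control percentile. Negative differences made up 53.2% of all genes and 55.7% of those above the percentile. Of 41 other small-subunit factors, 39 of them above it in both groups, 3 fell and 0 rose (median -0.12, 35 negative). Of 46 other large-subunit factors, 42 of them above it in both groups, 1 fell and 0 rose (median -0.15, 39 negative). The fallen ones were Wdr46 (-0.54 ± 0.09), Rcl1 (-0.42 ± 0.10) and Utp14a (-0.34 ± 0.08) of the small subunit and Nip7 (-0.42 ± 0.09) of the large one, with limma adjusted p of 0.00997, 0.0467, 0.0418 and 0.0315. Of these, Wdr46 passed in 6 of the 6 fits without 1 array, Nip7 in 0, Rcl1 in 1 and Utp14a in 1.

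RNA polymerase I makes the precursor RNA. Of 15 listed genes of this machinery 11 were measured, and the others were not matched to a symbol on the array. Of the 11, 2 fell, the catalytic subunits Polr1a and Polr1b, and 0 rose (median -0.12). Beside the counts here, 2.22% of all genes were called lower, and 3.93% of those with both group means above the negative-control percentile. Polr1a had 9.73, 9.87 and 9.89 in the shRras2 cells, against 10.33, 10.28 and 10.48 in the pLKO cells (-0.54 ± 0.09, limma adjusted p = 0.0111), and Polr1b had 8.55, 8.71 and 8.65 in the shRras2 cells, against 8.93, 9.03 and 9.22 in the pLKO cells (-0.42 ± 0.10, limma adjusted p = 0.0422). The initiation factor Rrn3 and the promoter factor Ubtf, at -0.12 ± 0.08 and 0.03 ± 0.10, did not pass (limma adjusted p = 0.481 and 0.911), and the sign for Ubtf turned when arrays were centred on their medians. Polr1a passed in 5 and Polr1b in 1 of the 6 fits without 1 array. RNA polymerase III, which makes the remaining ribosomal RNA and tRNAs, had 2 falls among 21 genes, Polr3g (-0.81 ± 0.16, limma adjusted p = 0.0229) and Polr3b (-0.45 ± 0.09, limma adjusted p = 0.0302), and Polr3g lay below the negative-control percentile in shRras2 cells. Of the 12 genes of the RNA exosome, a nuclease that trims precursors, Exosc2 fell (-0.47 ± 0.08, limma adjusted p = 0.0116). All 12 differences were negative (median -0.18), against 53.2% of all genes and 55.7% of those above the percentile in both groups. Exosc2 passed in 2 of the 6 fits without 1 array, Polr3g in 2 and Polr3b in 1.

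The ribosomal proteins themselves, the cargo of assembly, had a median nearer 0. Of 79 listed cytosolic ribosomal protein genes 56 were measured, all with both group means above the negative-control percentile. Of the 56, 0 fell and 0 rose in limma, and 9 were lower at an unadjusted p under 0.05. At that p, 10% of all genes were lower and 15.3% of those above the percentile in both groups. All 3 shRras2 arrays lay below all 3 pLKO arrays for 35 of the 56 ribosomal protein genes, against 13.9% and 22.6%. Their differences lay between -0.26 (Rps26) and 0.01 (Rps7), with a median of -0.13. Of the ribosomal protein genes 55 of 56 had a negative difference, against 53.2% of all genes and 55.7% of those above the percentile. Many have processed copies in the genome with near-identical sequence, which the probes may share. Per shRras2 array the median deviation of the ribosomal protein genes from the pLKO mean was -0.15, -0.07 and -0.14 on replicates 4, 5 and 6, beside -0.37, -0.17 and -0.26 for the 48 assembly genes. The ribosomal protein genes were also brighter, with median log2 signals of 11.96 to 12.23 over the 6 arrays, against 9.50 to 10.02 for the 48. Whether the signal level bears on the size of the shift was not tested. The window of 300 bases held CACGTG in 4 of 44 ribosomal protein genes (9.09%) and CCGGAA in 23 (52.3%).

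**Figure D5:**
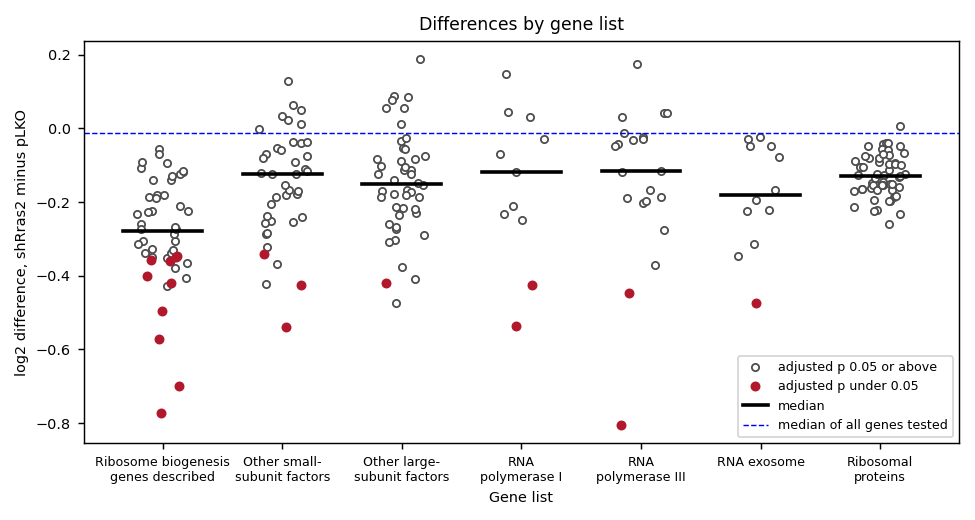
Log2 differences, shRras2 minus pLKO, of single genes (points) in the 48 described genes and in 6 other lists; filled red points had a limma adjusted p under 0.05, black lines are list medians, and the dashed line is the median of all genes tested, -0.01. The medians are -0.28 for the described genes and between -0.18 and -0.12 for the other lists.

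Myc, which encodes a regulator of ribosome biogenesis genes, had 10.92, 10.82 and 11.27 in the shRras2 cells, against 11.29, 11.30 and 11.46 in the pLKO cells. The groups were separate, replicate 6 lay just below the lowest pLKO value, and the difference of -0.34 ± 0.12 did not pass (limma adjusted p = 0.161). With trend and robust settings Myc passed, at a limma adjusted p of 0.0498, and over all alternatives that p lay between 0.0498 and 0.365. Of 11 genes of the MYC network 0 fell and 1 rose, against 2.22% and 2.99% of all genes. The risen gene was Mxd1, whose protein competes with MYC for its partner MAX. Mxd1 had 8.48, 8.39 and 8.30 in the shRras2 cells, against 7.95, 7.96 and 8.04 in the pLKO cells (0.41 ± 0.08, limma adjusted p = 0.0249), and it passed in 1 of the 6 fits without 1 array. Max and Mxd4 differed by -0.02 ± 0.10 and 0.26 ± 0.09 and did not pass (limma adjusted p = 0.951 and 0.141).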

How the data were processed

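Signals were deposited by the authors on the log2 scale, 1 per probe set; RMA and R 3.6.3 are named in the submitters' processing notes. The annotation build and any filters are not stated there. RMA brings the distributions of the arrays close together, so a change shared by all genes would not be seen. The array medians over the genes tested still lay between 7.22 and 7.28. Of 29129 probe sets, 6923 were controls; 19572 of the 22206 others had 1 gene symbol and 0 had several. The brightest probe set per symbol gave 19505 genes. The 50 genes described were matched only by the symbols of the array annotation. Symbols of the other lists not found on the array were looked for among synonyms in the RefSeq table of GRCm38.p6. The 2 groups of 3 arrays were compared with limma 3.58.1 in R 4.3.3 (lmFit, eBayes, no covariates, two-sided), with p-values adjusted by Benjamini and Hochberg's method over all 19505 genes and called under 0.05; residual and prior degrees of freedom were 4 and 4.85. Errors on differences are SEs, and the median SE of the 48 genes was 0.09. The number of arrays limits the precision. On simulated data for this comparison, over 19505 genes, the fit recovered 38 of 67 genes changed by 0.5, 65 of 67 changed by 1 and 66 of 66 changed by 2 on the log2 scale, with 8 false calls. The simulation gave each gene independent normal noise and changed 200 genes, fewer than the 1017 called in the data. Changes below 0.5, such as the median of -0.28 of the 48 genes, and genes shifting together were not simulated.

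The genes, lists and motifs were chosen with earlier results of these data known. By the rule, named genes were Rras2, Myc, Polr1a, Rrn3 and Ubtf, the fallen genes of the 48, at least the 2 largest differences in each step, the 3 brightest and 3 dimmest of the 48, and up to 4 genes past the threshold in each other list; the rest of the 48, Max, Mxd4, Rps26, Rps7 and markers were named after their values were seen. The deposited table was also tested after another quantile normalization, centring on array medians, cyclic loess, leaving out the dimmest 30% of genes, averaging probe sets, testing every transcript probe set, trend and robust eBayes, array weights and leaving out each array in turn. Figures were drawn with matplotlib 3.10.9.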

Additional observations from a re-analysis of the deposited data

How the results depend on the processing

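All differences of the 48 genes (46 in the alternative added) were negative, 0 rose, and Rras2 fell, under every alternative run. The count of fallen genes, 10, became 18 without the dimmest 30% of genes and 27 with trend and robust settings (1908 genes called in all). It was 25 of 46, with Rrp12 not among them, when only the 7885 genes above the negative-control percentile in both groups were tested, an alternative added after seeing the data. The share of all tested genes called lower rose as well, from 2.22% to 4.59, 4.83 and 10.6% in these 3 settings. In those 3 settings the counts were 4, 8 and 8 for other small-subunit factors, 2, 6 and 7 for other large-subunit factors and 1, 7 and 2 for ribosomal proteins. Other large-subunit factors numbered 2 after quantile normalization, median centring or cyclic loess, and other small-subunit factors 5 with array weights. Fewer genes are adjusted over in settings 1 and 3 of these; the other causes were not tested. Without 1 array, the fallen genes numbered 1 to 11, other small-subunit factors 1 to 5, other large-subunit factors 0 to 1, polymerase I genes 0 to 2, ribosomal proteins 0, all calls 392 to 1136, and the Rras2 difference was -1.59 to -1.29. Ubtf, 0.03, was -0.0087 after median centring, and between -0.052 and 0.088 without 1 array, below 0 without pLKO replicate 2 (-0.021) or shRras2 replicate 6. Of 507 values of named genes under alternatives, 402 kept their side of the threshold, 83 lost it, 19 gained it (with trend and robust settings Myc, Nop58, Nop10, Mybbp1a, Imp4, Wdr12 and Ncl) and 3 changed sign, those of Ubtf. No paired analysis was run, because the labels number the samples from 1 to 6 and give no pairing between the groups.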
